A study of Mus musculus with 4 samples.

Results

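The subject is the family of cell-surface receptors for 2 lysophospholipid signals, lysophosphatidic acid (LPA) and sphingosine 1-phosphate (S1P), in sensory neurons of the newborn mouse. The members were chosen by gene symbol, 6 LPA receptor genes (Lpar1 to Lpar6) and 4 S1P receptor genes (S1pr1, S1pr2, S1pr3 and S1pr5). All 10 were found among the 41388 genes of the deposited tables. RNA was sequenced from cells of dorsal root ganglia of spinal levels T11 to S1 of C57BL/6 mice at postnatal day 2, sorted for EGFP by flow cytometry. The genotype label is Tg(Ret-EGFP)SJ/, and the design text describes heterozygotes with EGFP placed in the Ret locus. Every library therefore carries the reporter, and cells are marked by activity of the Ret locus rather than by a lineage label. There were 4 libraries, and the labels give 1 animal for each. They give 40 pooled ganglia for female A and 20 for each of the males A, B and C, without saying how 1 animal yielded the larger number.

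The labels divide the libraries in a second way. The pool of female A and that of male A is described as coming from a P2 mouse, and the pools of male B and male C as coming from an embryo, although the stage label is P2 throughout. These are called the P2-mouse pair and the embryo pair. The sources used here do not say what the descriptions stand for. Sex and pool description are partly confounded, since both embryo pools are male.

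LPA and S1P are small lipids that act outside the cell through G protein-coupled receptors. LPA is released from lysophosphatidylcholine by the secreted enzyme autotaxin (gene Enpp2), and S1P is made inside cells by sphingosine kinases and exported. Lpar1, Lpar2 and Lpar3 belong with the S1P receptors to the endothelial differentiation gene family, whereas Lpar4, Lpar5 and Lpar6 are related to P2Y nucleotide receptors. In the peripheral nervous system the receptors are known for effects on growth cone collapse, Schwann cell biology and pain.

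Library totals ran from 17388493 to 28066448 gene counts. All 10 sensory neuron markers were detected, summing to 2962 and 2756 RPKM in the P2-mouse pair and to 5498 and 5203 in the embryo pair. The list was mixed, with 7 markers lower and 3 higher in both P2-mouse libraries than in both embryo libraries (the share of all genes that separated so was not counted). Its medians lay closer together, at 165 and 154 RPKM in the P2-mouse pair against 193 and 172 in the embryo pair. Ret stood between 31.6 and 37.0 RPKM. RPKM, the unit used for levels, is reads per kilobase of exon scaled to the total of the library and allows genes to be compared with each other. Transcripts of other cells were present as well. The 12 Schwann cell markers summed to 1755 and 2765 RPKM in the P2-mouse pair and to 1211 and 1229 in the embryo pair, and the 8 fibroblast markers to 224 and 238 against 92.1 and 95.2 RPKM. The sums of neuron, Schwann cell and fibroblast markers thus all differed between the pairs. The part of these cells in the receptor differences was not tested. In such bulk samples, fewer cells of a type and less RNA per cell cannot be told apart.

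Lpar1 was the most abundant receptor, with a mean of 44.3 ± 11.9 RPKM (SD, n = 4 libraries). It was followed by S1pr3 at 24.5 ± 9.55 RPKM and S1pr1 at 8.19 ± 2.34 RPKM. Lpar4 (5.43 ± 4.50), Lpar5 (4.59 ± 3.27), S1pr2 (4.13 ± 0.663) and Lpar3 (4.11 ± 0.491 RPKM) formed a middle group. Lpar6 averaged 0.795 ± 0.503 RPKM and Lpar2 0.158 ± 0.0882 RPKM. S1pr5, a receptor known from oligodendrocytes and natural killer cells, had 3 counts in male A and 0 in the other libraries. A count of 0 allows up to 0.0428 RPKM for female A, 0.0529 for male B and 0.0482 for male C, for counting error only.

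The order was loose in the middle. Lpar1 exceeded S1pr3 in 4 of 4 libraries, although their ranges overlapped, and S1pr3 exceeded S1pr1 without overlap. From S1pr1 to Lpar3, the ranges of each receptor and the next overlapped, and none of these neighbours kept its order in all 4 libraries. Lpar3 and Lpar6, and Lpar6 and Lpar2, did not overlap. Lpar2 exceeded S1pr5 in 4 of 4 libraries, although their ranges overlapped. By mean RPKM, Lpar1 lay above 94.2% and S1pr3 above 90.6% of the genes with any count.

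**Figure D1:**
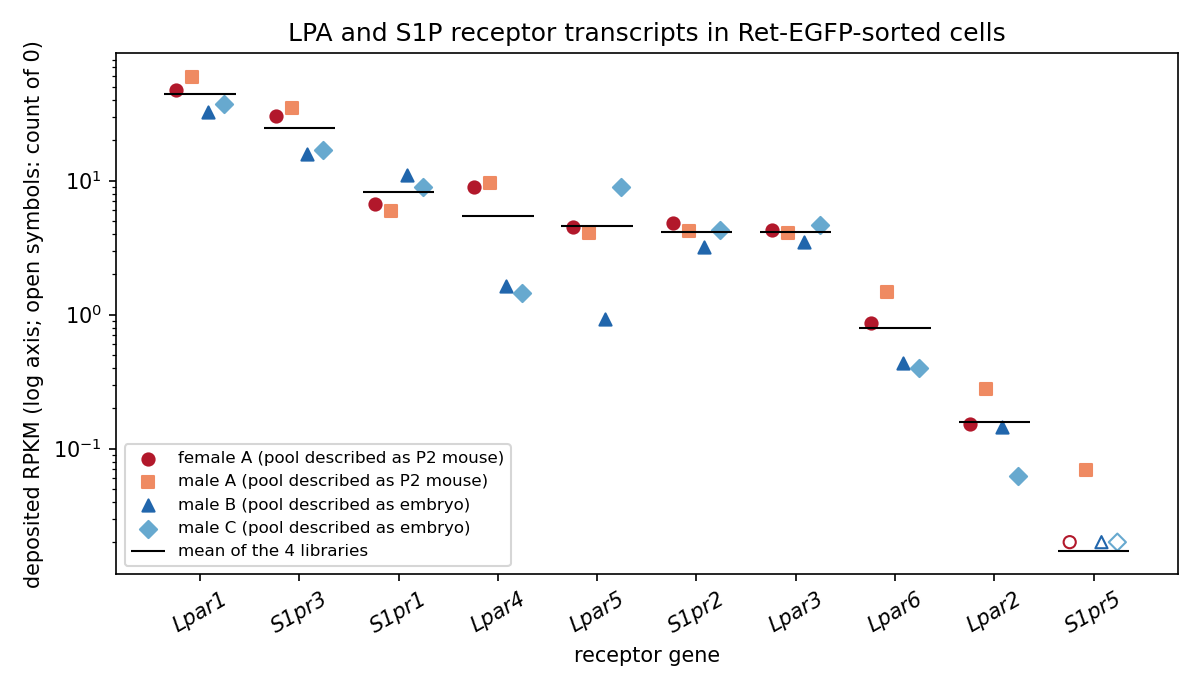
Deposited RPKM (log axis) of the 10 receptor genes, ordered by mean, with 1 symbol per library and a black line at the mean of the 4 libraries; open symbols stand for a count of 0 and are placed at an arbitrary height. Lpar1 and S1pr3 lie highest, Lpar4 separates the P2-mouse pair from the embryo pair, and Lpar5 separates male B from male C.

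In each family 1 receptor supplied most of the transcripts. Lpar1 made up 71.7% and 75.3% of the summed RPKM of the 6 LPA receptor genes for female A and male A, and 83.2% and 70.7% for males B and C. S1pr3 made up 72.4% and 77.4% of the S1P receptor sum in female A and male A, but 52.4% and 56.2% in male B and male C. The share of S1pr1 was 16.1% and 13.1% in the P2-mouse pair and 36.9% and 29.7% in the embryo pair. Both family sums were larger in the P2-mouse pair, with means of 72.7 against 46.1 RPKM for the LPA receptors and 43.5 against 30.2 RPKM for the S1P receptors.

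**Figure D2:**
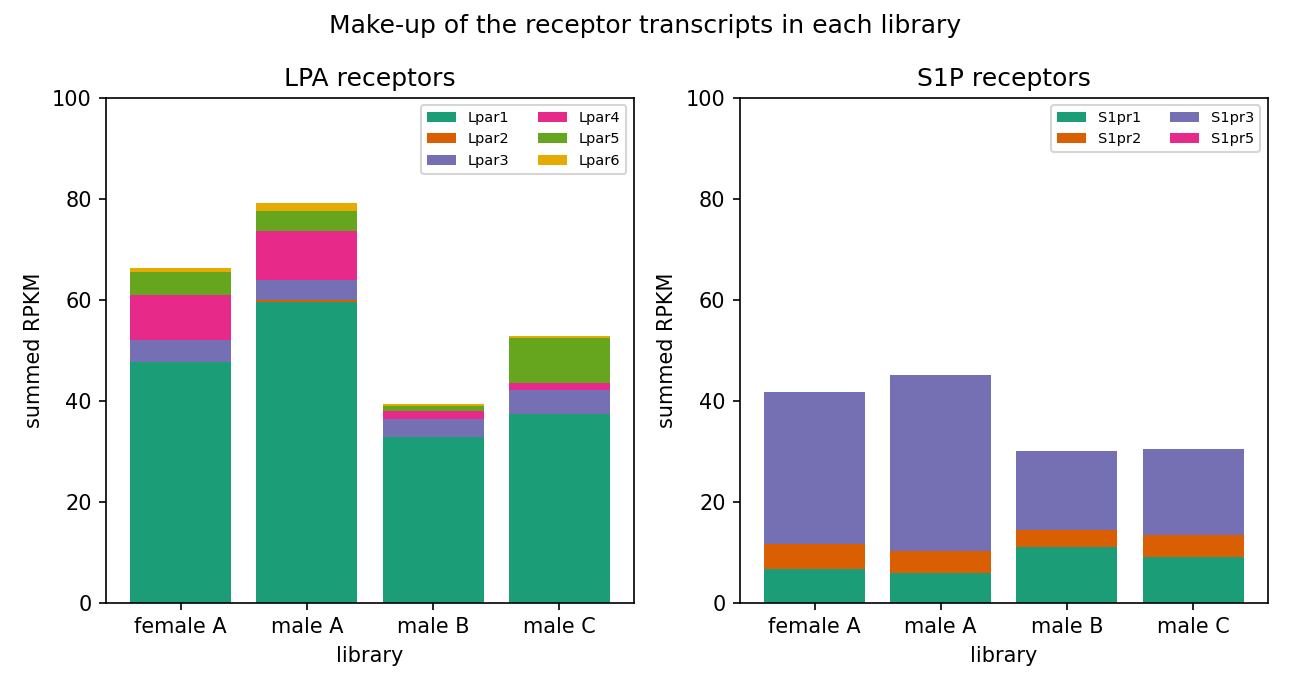
Summed RPKM of the LPA receptor genes (left) and the S1P receptor genes (right) in each library, with each bar divided by gene. Lpar1 fills most of every LPA bar, and S1pr3 fills 72.4% and 77.4% of the S1P bars of the P2-mouse pair against 52.4% and 56.2% in the embryo pair.

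Between the pairs, the quasi-likelihood F test of edgeR, adjusted by the Benjamini-Hochberg method, called 4 receptors higher for the P2-mouse animals (Lpar4, Lpar6, S1pr3 and Lpar1) and 1 lower (S1pr1). The test ran on 15568 genes, and 9 of the 10 receptors passed its filter on low counts, S1pr5 being left out. Over all genes tested, 22.3% were called higher and 20.0% lower, 42.3% together, so that a call on 5 of 9 receptors lies close to the background of this fit. The median log2 fold change of the 9 receptors was 0.50, against 0.02 over all genes tested. The libraries differ with the base composition of transcripts. With offsets for GC content and length fitted in each library, 3 receptors were called (Lpar4, S1pr3 and S1pr1). Beside them, 12.7% of all genes were higher and 20.5% lower (33.2% together), and the calls on Lpar1 and Lpar6 were lost. A sex term fits the lone female exactly, so each fit with it sets male A alone against males B and C. With sex as a term, the same 5 receptors were called, 4 higher and 1 lower, beside 13.2% of all genes higher and 10.6% lower (23.8% together). With sex and the offsets together, Lpar4 and S1pr3 were called, both higher, beside 4.17% of all genes higher and 7.17% lower (11.3% together). Without male A, which leaves female A against both embryo pools, Lpar1, Lpar6 and S1pr1 were no longer called and 2 of 9 receptors were, both higher, beside 22.1% of all genes called (11.8% higher and 10.3% lower).

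**Figure D3:**
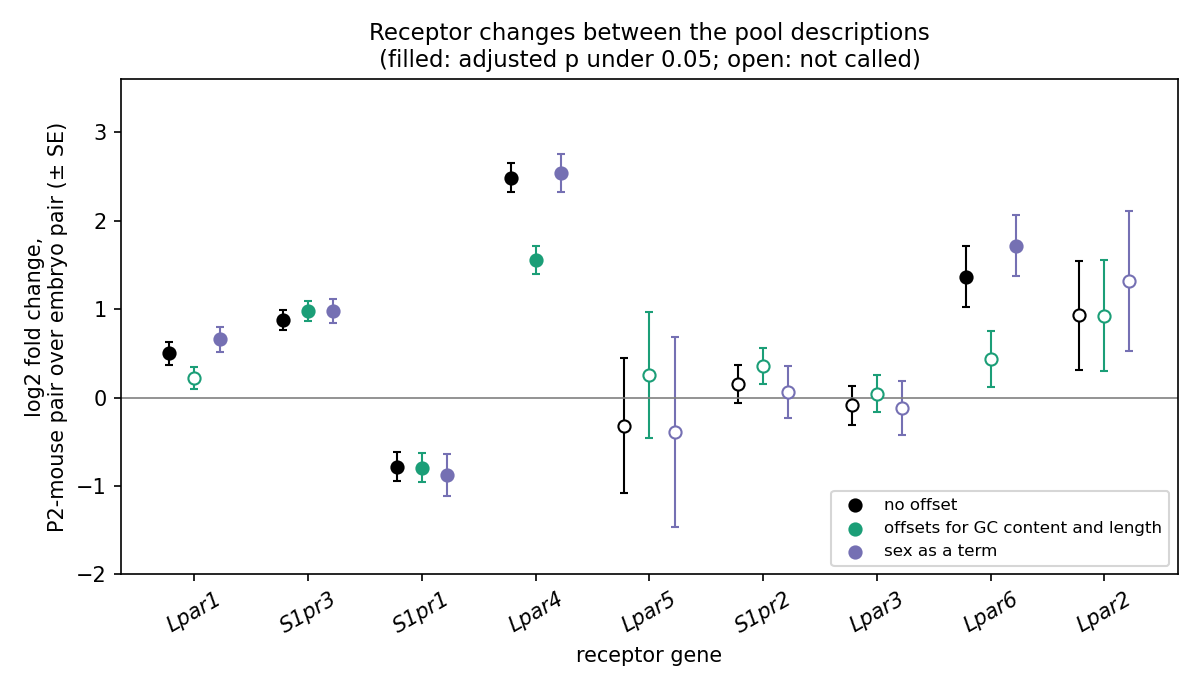
Log2 fold change of each tested receptor between the P2-mouse pair and the embryo pair, with SE bars. Values are from edgeR without an offset (black), with GC and length offsets (green) and with sex as a term (purple). The purple values set male A alone against males B and C. Filled symbols passed an adjusted p of 0.05. Lpar4, S1pr3 and S1pr1 are filled in all of these fits, whereas Lpar1 and Lpar6 are open with the offsets.

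Lpar4 showed the largest difference of the tested receptors. It encodes an LPA receptor related to P2Y receptors (ENSMUSG00000049929, chromosome X, 106920625 to 106933900, plus strand, GRCm38). Its level was 9.01 RPKM for female A and 9.63 for male A, against 1.62 for male B and 1.45 for male C. The 2 libraries of each pair were thus close to each other, and the pair means differed by 6.07 times. The edgeR log2 fold change was 2.49 (SE 0.16, adjusted p = 0.000135). With offsets for composition it was 1.56 (SE 0.16, adjusted p = 0.000477), and it lay between 2.36 and 2.56 when any 1 library was left out. Lpar4 transcripts are poor in GC (33.7%), lower than all but 0.136% of the tested genes. The 36 tested genes within 1 percentage point of that content had a median log2 fold change of 1.14 between the pairs. Lpar4 is X-linked, and female A (1072 counts) stood at 0.935 times male A (710 counts) after scaling to library totals, with a 95% exact counting interval of 0.850 to 1.03.

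S1pr3 encodes a receptor for S1P that couples to several classes of G protein and is known from nociceptors (ENSMUSG00000067586, chromosome 13, 51408618 to 51422797, plus strand). It stood at 30.3 and 34.9 RPKM for female A and male A, and at 15.8 and 17.1 RPKM for male B and male C. The pairs did not overlap and their means differed by 1.99 times. The edgeR log2 fold change was 0.88 (SE 0.11, adjusted p = 0.000837), 0.98 (SE 0.11, adjusted p = 0.000773) under the offsets and between 0.76 and 0.99 with 1 library left out. S1pr3 has a GC content of 51.6%, and the 1581 tested genes of like content had a median of -0.20. The GENCODE gene Gm32834 covers 1.00% of its exons on the opposite strand.

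Lpar6, another P2Y-related LPA receptor gene, lies within the gene Rb1 (ENSMUSG00000033446, chromosome 14, 73237895 to 73243294, plus strand). It had 0.864 and 1.48 RPKM for female A and male A, and 0.433 and 0.402 RPKM for male B and male C, from 131, 139, 53 and 54 counts. Its edgeR log2 fold change of 1.36 (SE 0.35, adjusted p = 0.0153) became 0.43 (SE 0.32, adjusted p = 0.326) under the offsets. The GC content is 36.4%, and the 179 tested genes of like content had a median of 0.85. Exons of Rb1 on the opposite strand cover 7.56% of the gene. Rb1 itself had 1231, 711, 354 and 305 counts in the same order of libraries. The sources used here do not give the strand setting of the counting, so reads from the shared stretch cannot be assigned. Since all of Lpar6 lies within Rb1, the same holds for any reads from unspliced Rb1 RNA elsewhere in the gene.

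The stretches before the annotated starts of these 3 genes are shown because Lpar4, Lpar6 and S1pr3 had the largest rises among the called receptors while differing in composition. They are the 250 bases before the start in RefSeq, build GRCm38.p6, all on the plus strand. Capitals mark matches, on either strand, to 6 short motifs, namely the GC box with the letters GGGCGG, the CCAAT box, the TATA box with the letters TATAAA, the core of SOX sites with the letters ACAAAG, the E-box with the letters CACGTG and the cyclic AMP response element with the letters TGACGTCA.
Lpar4, chrX:106920375-106920624: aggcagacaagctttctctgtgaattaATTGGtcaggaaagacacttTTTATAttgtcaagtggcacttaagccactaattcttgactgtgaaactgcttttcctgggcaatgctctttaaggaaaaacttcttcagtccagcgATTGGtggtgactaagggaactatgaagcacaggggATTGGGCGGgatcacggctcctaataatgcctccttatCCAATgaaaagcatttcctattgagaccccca
Lpar6, chr14:73237641-73237890: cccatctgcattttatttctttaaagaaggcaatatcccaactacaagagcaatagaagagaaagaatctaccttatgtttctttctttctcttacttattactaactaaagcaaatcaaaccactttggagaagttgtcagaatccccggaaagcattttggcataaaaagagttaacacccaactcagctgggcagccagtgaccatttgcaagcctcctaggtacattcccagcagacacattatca
S1pr3, chr13:51408368-51408617: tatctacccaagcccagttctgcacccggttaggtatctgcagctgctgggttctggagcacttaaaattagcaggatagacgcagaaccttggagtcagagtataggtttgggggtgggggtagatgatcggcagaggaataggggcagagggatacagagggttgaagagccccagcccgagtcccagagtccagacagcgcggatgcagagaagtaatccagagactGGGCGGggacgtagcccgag
The Lpar4 stretch held 4 CCAAT boxes, of which 1 overlaps its GC box, and 1 TATA box. Of 32851 windows of this length in the RefSeq table, 33.8% held a CCAAT box and 0.840% held 4 or more, 12.4% held a TATA box and 32.7% a GC box. The SOX core was in 16.5%, the E-box in 6.02% and the cyclic AMP response element in 1.55%. The S1pr3 stretch held 1 GC box and the Lpar6 stretch none of the 6 motifs. GC content was 43.6% before Lpar4, 39.2% before Lpar6 and 56.4% before S1pr3, with a median of 52.4% over all windows. These matches describe letters only. Windows were found for 9 of the 10 receptors, with S1pr1 having none in the table.

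Lpar1 encodes the LPA receptor best known from Schwann cells and from neuropathic pain (ENSMUSG00000038668, chromosome 4, 58435255 to 58553898, minus strand). It measured 47.6 and 59.6 RPKM for female A and male A, and 32.7 and 37.3 RPKM for male B and male C. Both P2-mouse libraries exceeded both embryo libraries, with pair means of 53.6 and 35.0 RPKM. The edgeR log2 fold change was 0.50 (SE 0.13, adjusted p = 0.0183), and 0.23 (SE 0.12, adjusted p = 0.197) under the offsets. Without male A it was 0.32 (adjusted p = 0.156). Of the Schwann cell markers, 11 of 12 were higher in both P2-mouse libraries than in both embryo libraries. The share of all genes that separated in this way was not counted, and 22.3% of all genes tested were called higher by edgeR. The medians of the 12 markers were 27.3 and 31.6 against 3.87 and 4.76 RPKM. Ngfr was the exception and stood highest in male C. The most abundant of these markers, Pmp22, averaged 1250 RPKM. The part of Schwann cell transcripts in the Lpar1 difference was not tested.

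S1pr1 was the receptor that fell. It encodes an S1P receptor that couples to inhibitory G proteins and is known from endothelial cells and lymphocytes (ENSMUSG00000045092, chromosome 3, 115710433 to 115715055, minus strand). Its levels were 6.73 and 5.92 RPKM for female A and male A, and 11.1 and 9.03 RPKM for male B and male C. Both P2-mouse libraries lay below both embryo libraries. The edgeR log2 fold change was -0.78 (SE 0.16, adjusted p = 0.00674), -0.79 (SE 0.16, adjusted p = 0.00844) under the offsets, -0.70 (adjusted p = 0.0765) without male A and -0.91 (adjusted p = 0.0606) with the offsets and sex as a term together. The 8 endothelial markers summed to 4.22 and 2.01 RPKM in the P2-mouse pair and 1.01 and 0.824 in the embryo pair. The 6 lymphocyte markers summed to 1.04 and 1.15 against 2.21 and 1.31 RPKM. Of the 2 tested, Cd79a was lower in the P2-mouse pair (-2.16, SE 0.53, edgeR adjusted p = 0.0134) and Cd3e was not called (1.67, SE 0.70). The part of endothelial cells and lymphocytes in the S1pr1 difference was not tested.

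**Figure D4:**
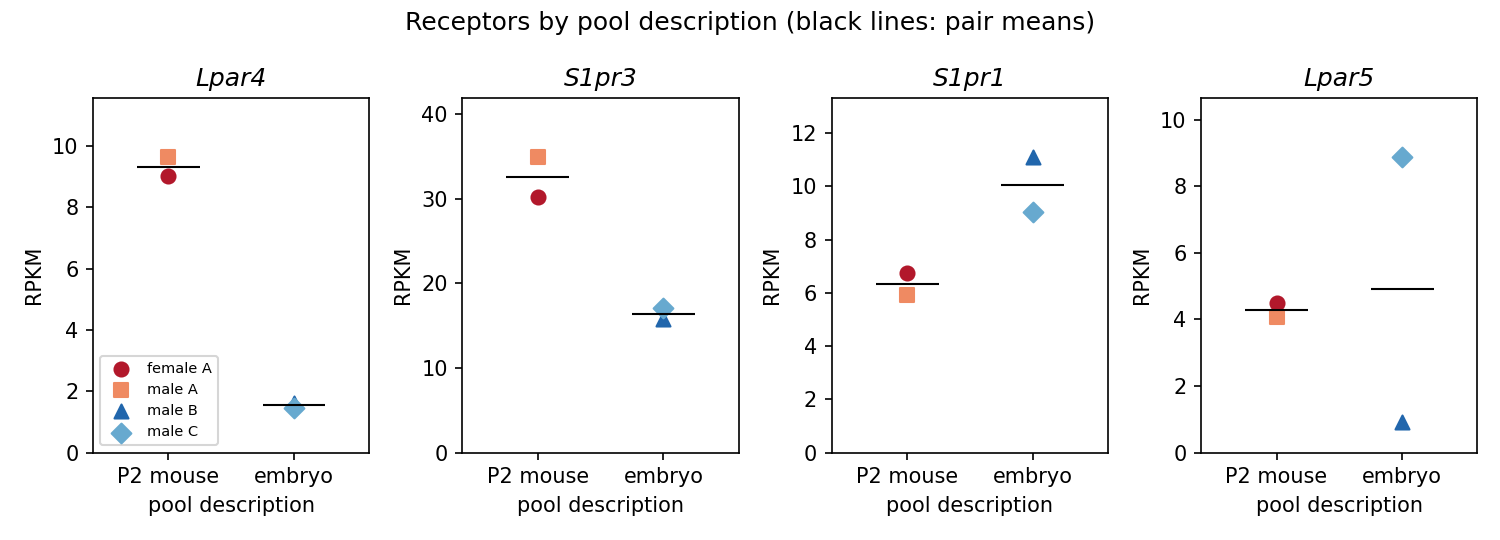
RPKM (linear axes from 0) of Lpar4, S1pr3, S1pr1 and Lpar5 by pool description, with 1 symbol per library and black lines at pair means. The pairs separate for Lpar4, S1pr3 and S1pr1, whereas male B (0.932 RPKM) and male C (8.88 RPKM) lie on either side of the P2-mouse pair for Lpar5.

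Lpar5, whose product is an LPA receptor linked to pain behaviour, was uneven within the embryo pair (ENSMUSG00000067714, chromosome 6, 125067920 to 125082472, plus strand). It had 4.49 and 4.06 RPKM for female A and male A, but 0.932 RPKM for male B and 8.88 for male C, from 191, 107, 32 and 335 counts. Female A and male A were alike within counting error (ratio 1.11, 95% exact counting interval 0.868 to 1.41), but male C exceeded male B by 9.53 times (interval 6.62 to 14.2, counting error only). Among the 10419 other genes with a mean of at least 5 CPM, 2 differed by as much between these males, namely Xist and C1qtnf4. Both were named after their values were seen. Xist had 6536 counts in female A but 14, 3 and 44 in males A, B and C. It reached the mean of 5 CPM through the female, and its ratio between the males rests on few counts. Like Lpar5, C1qtnf4 was lowest in male B and highest in male C, with 12.9, 12.1, 0.718 and 16.1 RPKM in the same order of libraries. Its gap between these males was the reason for its selection. Lpar5 transcripts are rich in GC (58.8%). The 470 genes of like content and at least 5 CPM had a median log2 ratio of 0.13 between male C and male B, and the part of base composition in the Lpar5 difference was not tested. The edgeR log2 fold change between the pairs, -0.32 (SE 0.76, adjusted p = 0.769), rests on which embryo pool is used. It was -1.18 (adjusted p = 0.00137) without male B and 2.04 (adjusted p = 0.000999) without male C.

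Lpar3 and S1pr2 varied least of the tested receptors. Lpar3, an LPA receptor gene known from nonpeptidergic nociceptors, stood at 4.24 and 4.06 RPKM in the P2-mouse pair and at 3.48 and 4.67 RPKM in males B and C. The pairs overlapped, with an edgeR log2 fold change of -0.09 (SE 0.22, adjusted p = 0.772). The nonpeptidergic markers Scn11a and Mrgprd averaged 106 and 105 RPKM. S1pr2, which encodes an S1P receptor that couples to several classes of G protein, stood at 4.80, 4.23, 3.21 and 4.28 RPKM, with an edgeR log2 fold change of 0.16 (SE 0.21, adjusted p = 0.595). A missed threshold does not show that these levels were equal.

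Lpar2 was near the limit of measurement, with 25 and 28 counts for female A and male A, and 19 and 9 for males B and C. Its edgeR log2 fold change of 0.93 (SE 0.62, adjusted p = 0.261) was not called.

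Genes for enzymes, transporters, related proteins and effectors around the receptors are given beside the background between the pairs. There, 22.3% of all genes were called higher and 20.0% lower, or 12.7% and 20.5% with the offsets. Of 15 genes of LPA synthesis and breakdown, 13 were tested, of which 2 were higher and 3 lower for the P2-mouse animals, with a median log2 fold change of -0.38. This is 38.5% of those tested, near the 42.3% of all genes. The list includes the phosphatase-related genes Plppr1 to Plppr5, which were not called in this fit. Its shares and medians therefore do not describe known LPA enzymes alone. Plpp3, a phosphatase that degrades extracellular LPA and S1P, was higher at 17.6 and 17.8 against 4.26 and 5.24 RPKM, with an edgeR log2 fold change of 1.78 (SE 0.15, adjusted p = 0.000194). Lower were Agk, a mitochondrial acylglycerol kinase (-0.50, SE 0.11), and the phospholipase gene Pla2g6 (-0.99, SE 0.12). Plpp1, a related phosphatase, averaged 24.4 RPKM and was not called (0.15), but was higher under the offsets (0.49, SE 0.12). The autotaxin gene Enpp2 was low, at 1.25 and 0.878 RPKM in the P2-mouse pair and 1.38 and 1.98 RPKM in males B and C, and was not called (-0.76, SE 0.31, edgeR adjusted p = 0.0817). Under the offsets 3 genes of this list were higher and 6 lower, with Enpp2 among the lower (-1.07, SE 0.31, adjusted p = 0.0311), which is 69.2% against 33.2% of all genes. With sex as a term 2 were higher and 1 lower (21.4% of 14 tested, against 23.8% of all genes), and Agk was not called (adjusted p = 0.0610).

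Of 15 genes of S1P synthesis, transport and breakdown, 13 were tested, 4 were higher and 3 lower, with a median log2 fold change of 0.27. The share called was 53.8%, against 42.3% of all genes. The higher ones were the transporter gene Abca1 (1.48, SE 0.19), the S1P lyase gene Sgpl1 (0.75, SE 0.14), and the ceramidase genes Asah1 (0.63, SE 0.10) and Acer3 (0.50, SE 0.13). The lower ones were the sphingosine kinase gene Sphk2 (-0.92, SE 0.21), the S1P phosphatase gene Sgpp2 (-0.73, SE 0.15) and the exporter gene Abcc1 (-0.62, SE 0.13). Sphk2 averaged 3.17 RPKM and its relative Sphk1 0.257 RPKM. With the offsets, Asah1 (0.21) and Acer3 (-0.13) were not called, and 2 genes were higher and 3 lower (38.5%, against 33.2% of all genes). With sex as a term 4 were higher and 1 lower (38.5%, against 23.8%), and Sphk2 (adjusted p = 0.0700) and Sgpp2 (adjusted p = 0.0726) were not called.

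Among 17 genes for G proteins and effectors downstream of the receptors, all tested, 8 were higher and 4 lower, with a median of 0.52. The share called was 70.6%, against 42.3% of all genes. Gnaq and Rhoa were the most abundant, with 200 and 98.0 RPKM on average, and neither was called. Rock2 (1.71, SE 0.15) and Rock1 (1.36, SE 0.24), kinases that act on the actin cytoskeleton, were higher, as were the inhibitory subunit gene Gnai3 (1.06, SE 0.097) and the phospholipase gene Plcb1 (0.86, SE 0.18). Gnai2 (-0.60), Gna11 (-0.58), Gna12 (-0.52) and Plcb3 (-0.49) were lower. With the offsets, 4 genes of the list were higher and 1 lower, the latter being Rhoa (-0.54, SE 0.10), and the share was 29.4%, against 33.2% of all genes. Rock2 (0.91) and Gnai3 (0.53) were still called, while Rock1 (0.56) and Plcb1 (0.25) were not, nor were the 4 lower ones. With sex as a term 6 were higher and 2 lower (47.1%, against 23.8%), and Plcb1 (adjusted p = 0.0650), Gna12 (0.0521) and Plcb3 (0.0752) were not called.

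The series set female against male neurons. No receptor passed edgeR's test between female A and the 3 males, where 0% of 16708 genes were called and 129 genes, none of them a receptor, had an unadjusted p under 0.05. DESeq2 called 5 genes and limma-voom 0, again with no receptor. With the GC and length offsets, 0.0181% of genes were called, all lower in the female, and no receptor. Female A lay inside the male range for 9 of the 10 receptors, and S1pr2 was above it (4.80 against 3.91 ± 0.602 RPKM, SD, n = 3 males). That range spans both pool descriptions, and the share of all genes inside it was not counted. S1pr5 is among the 9 with a count of 0 in female A. The test treats the lone female as if it varied like the males, whose spread includes the difference between the pool descriptions. Its SE for a receptor lay between 0.40 (S1pr2) and 1.08 (Lpar5) on the log2 scale, so that large differences could be missed. Even Xist, with 6536 counts in female A against 14, 3 and 44 in males A, B and C, was not called. With the pool description as a term, which sets female A against male A, 0 receptors and 0.0239% of genes were called, and Lpar1 (-0.34, SE 0.17) and Lpar6 (-0.79, SE 0.40) stood lower in female A. Without male A, Lpar4 (2.43, adjusted p = 0.00584) and S1pr3 (0.76, adjusted p = 0.0155) were called higher in the female by edgeR, beside 22.1% of all genes, but that fit compares female A with both embryo pools, so that sex cannot be told apart from the pool description.

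The genes whose profile over the 4 libraries was most like that of Lpar1 were Riok1, Rmdn2 and Atg4a, with root mean square differences of 0.016, 0.019 and 0.020 in centred log2 CPM. For S1pr3 they were Grb14, Lysmd3 and Fnip2, with 0.019, 0.023 and 0.029. Within 0.1 of the profile lay 144 of 10419 genes for Lpar1 and 247 for S1pr3, so likeness over 4 libraries is common.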

How the data were processed

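Per the submitters' processing notes, featureCounts 1.4.5 (Subread) and the build GRCm38.p2 were used. The deposited count values are whole reads per gene. The deposited CPM values are counts scaled to the library total, and the deposited RPKM values are CPM per kilobase of exon; both were recomputed from the counts. The sources used here do not give the aligner, annotation release or strand setting. Symbols came from GENCODE M21 (97.3% of 41388 genes).

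The main test was the quasi-likelihood F test of edgeR 4.0.16 in R 4.3.3. Libraries were scaled by TMM, low genes were removed by filterByExpr (at least 10 counts, and 15 in total), and p-values were adjusted by the Benjamini-Hochberg method over all genes tested, with calls at 0.05. The SE is the log2 fold change over the square root of F. Alternatives were relative log expression factors, 2 other filters (none, and a mean of at least 5 CPM), DESeq2 1.42.0, limma-voom (limma 3.58.1), robust empirical Bayes, each library left out, the other factor as a term, and per-library offsets for GC content (longest transcript) and exon length fitted with mgcv 1.9.3. Counting intervals are exact (Clopper-Pearson) at 95%, and without molecular identifiers they cover counting error only. Replicates are taken as separate animals, since the labels give 1 animal for each library. How 1 animal yielded the 40 ganglia of female A is not stated.

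The members and lists were chosen with earlier results of these data known. Named pathway genes were the 2 most abundant of each list and up to 4 per direction with the largest called changes and a mean of at least 1 RPKM; a few others were named as the textbook enzymes Enpp2 and Sphk1. A few genes that this rule names are not reported here. Like profiles were sought among genes of at least 5 CPM, on centred log2(TMM-scaled CPM + 0.5). In simulated data the test between the pairs recovered 100% of 100 well-counted genes changed by a fold of 4 (15568 genes). It recovered 75% of those changed by a fold of 2. The test between the sexes recovered 98% and 28% (16708 genes, simulated without a difference between the pairs). All genes were drawn at a common dispersion, estimated for the sexes with the pool description in the model. The main test between the sexes has no such term, so its recovery in the real data was not measured.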

Additional observations from a re-analysis of the deposited data

How the results depend on the processing

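The count of receptors called between the pairs (5, with 4 higher and 1 lower) was the same with relative log expression factors, no filter, DESeq2, limma-voom, robust empirical Bayes and sex as a term. The share of all genes called was 42.3% in the main fit. It was 42.8% with relative log expression factors, 29.8% with no filter, 39.5% with DESeq2, 43% with limma-voom and 43.2% with robust empirical Bayes. With a mean of at least 5 CPM the share was 55.2%. The fit with sex as a term sets male A alone against males B and C. The count of receptors called was 4 of 7 tested with a mean of at least 5 CPM, which leaves out Lpar6. With the GC and length offsets it was 3 (2 higher), and with these and sex as a term 2 (2 higher, 0 lower). Leaving out a library gave 2 to 6 (2 to 5 higher, 0 to 2 lower). Between the sexes it was 0, and 0 to 2 (0 to 2 higher) with a male left out.

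Lpar4 and S1pr3 kept their direction and call between the pairs under each alternative run. Between the pairs, signs turned for Lpar3, Lpar5 and S1pr2, none of them called in the main fit. Lpar5 was 0.40 with limma-voom, 0.26 with the GC and length offsets and 0.23 with these and sex as a term, and Lpar3 was 0.046 with the offsets. With 1 library left out, Lpar5 ran from -1.18 to 2.04, Lpar3 from -0.29 to 0.096 and S1pr2 from -0.046 to 0.34.

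Between the sexes, limma-voom gave 0.15 for Lpar2 and 0.37 for Lpar5. The GC and length offsets gave -0.082 for Lpar1, 0.045 for Lpar3, 0.18 for Lpar5 and -0.19 for Lpar6. The pool description as a term gave -0.34 for Lpar1, 0.045 for Lpar3, -0.12 for Lpar4, 0.13 for Lpar5, -0.79 for Lpar6, 0.16 for S1pr1 and -0.23 for S1pr3. With the offsets as well, the values were -0.32 for Lpar1, 0.052 for Lpar3, 0.020 for Lpar5, -0.63 for Lpar6, 0.18 for S1pr1 and -0.26 for S1pr3. With a male left out, Lpar1 ran from -0.081 to 0.32, Lpar2 from -0.51 to 0.46, Lpar3 from -0.11 to 0.090, Lpar5 from -0.62 to 0.81 and Lpar6 from -0.19 to 0.93. The causes were not tested.

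No paired analysis was possible because the groups share fewer than 2 replicate letters. Ranks by level changed only among Lpar3, Lpar4, Lpar5 and S1pr2, between places 4 and 7. Depth limits Lpar2, Lpar6 and S1pr5.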
